A study of Mus musculus with 6 samples.

Results

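Integrins and laminins were described in the livers of mice with and without a Cre driver directed at the innate immune adaptor Sting1 in endothelial cells. Members were all genes of the deposited table whose symbol begins with Itga or Itgb, or names a laminin alpha, beta or gamma chain (Lama, Lamb or Lamc followed by a digit). The rule found 42 of 21956 genes. They were split by known role into 9 leukocyte integrins, 18 matrix integrins, 11 laminins and 4 genes that carry an integrin-like symbol but encode no integrin subunit (Itgbl1, Itgb1bp1, Itgb1bp2 and Itgb3bp). The knockout group was 3 Stingfl/fl Cdh5-Cre+ mice and the control group 3 Stingfl/fl Cdh5-Cre- littermates. Every mouse of both groups carried the floxed Sting1 alleles, received chow to 8 weeks of age and was then fed CDAHFD, a steatohepatitis diet high in fat and without choline, for 10 weeks. Cre was present in the knockout group alone, so that an effect of Cre itself and one of the deletion cannot be told apart. Cdh5 is a junction gene of endothelial cells, so that its promoter directs Cre to endothelium in all organs, and the labels give neither sex nor which mice shared a litter. Whether other cells, such as leukocytes, also carried the deletion was not tested here. No chow-fed group was analysed here.

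Integrins are cell surface receptors made of 1 alpha and 1 beta subunit, which bind extracellular matrix or counter-receptors on other cells and couple them to the actin cytoskeleton. Laminins are cross-shaped trimers of an alpha, a beta and a gamma chain that form the sheet of basement membranes. In liver the normal sinusoid has little basement membrane, whereas bile ducts and larger vessels rest on one, and laminin is deposited along the sinusoids as fibrosis proceeds. Integrins on leukocytes carry blood cells into the tissue, and integrins that contain the αv subunit can release active TGF-beta from its latent complex.

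Although the cell type label gives liver sinusoidal endothelium, the hepatocyte transcript for albumin was far more abundant than that of an endothelial gene, as in unsorted tissue. Alb was at 77430 ± 10310 TPM (transcript abundance scaled to gene length and library size; SD, n = 3) in control and 89890 ± 6342 TPM in knockout livers, and the endothelial adhesion molecule Pecam1 at 26.1 ± 5.89 and 24.9 ± 1.43 TPM. Library totals ran from 16704663 to 21025466 counts. Sting1 had 240, 365 and 226 counts in control replicates 1 to 3 and 106, 114 and 80 in knockout replicates 1 to 3 (log2 fold change -1.29, SE 0.23; adjusted p = 0.357 with edgeR and 0.00154 with DESeq2, both explained below). Every knockout library was below every control library. Control replicate 2 stood apart, with the lowest albumin share (6.91% of counts against 9.07% to 10.9%) and a factor of 1.26 against 0.921 to 1.01 in TMM scaling, which sets libraries to a common level of most genes. In bulk tissue, fewer cells of a type and less RNA per cell cannot be told apart, and this holds for every difference given here.

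No member passed the test across all genes. In edgeR's quasi-likelihood test with Benjamini-Hochberg adjustment, 0% of the 13197 genes tested had an adjusted p under 0.05, and the lowest adjusted p of a member was 0.367, for Itgb8. At an unadjusted p under 0.05, 12 of the 38 members tested were lower and 1 was higher in the knockout, against 7% of all genes tested lower and 3.75% higher. Unadjusted values were used from here on to order the members, and no member is said to have changed on their basis. DESeq2, run as an alternative, called 0.902% of the genes it adjusted (119 in all), among them 1 member, Itgb8 (adjusted p = 0.0123 with DESeq2). Leaving out control replicate 2 reduced the 12 lower members to 5 (4.13% of all genes), left 0 higher (3.52% of all genes) and left 26 of 38 below 0 (47.7% of all genes), against 27 with all libraries. Leaving out knockout replicate 3 reduced the 12 to 7 (3.61% of all genes), and leaving out control replicate 3 raised them to 16 (8.63%). The number was 12 without knockout replicate 1 (7.35% of all genes), 8 without knockout replicate 2 (6.82%) and 8 without control replicate 1 (4.29%).

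**Figure D1:**
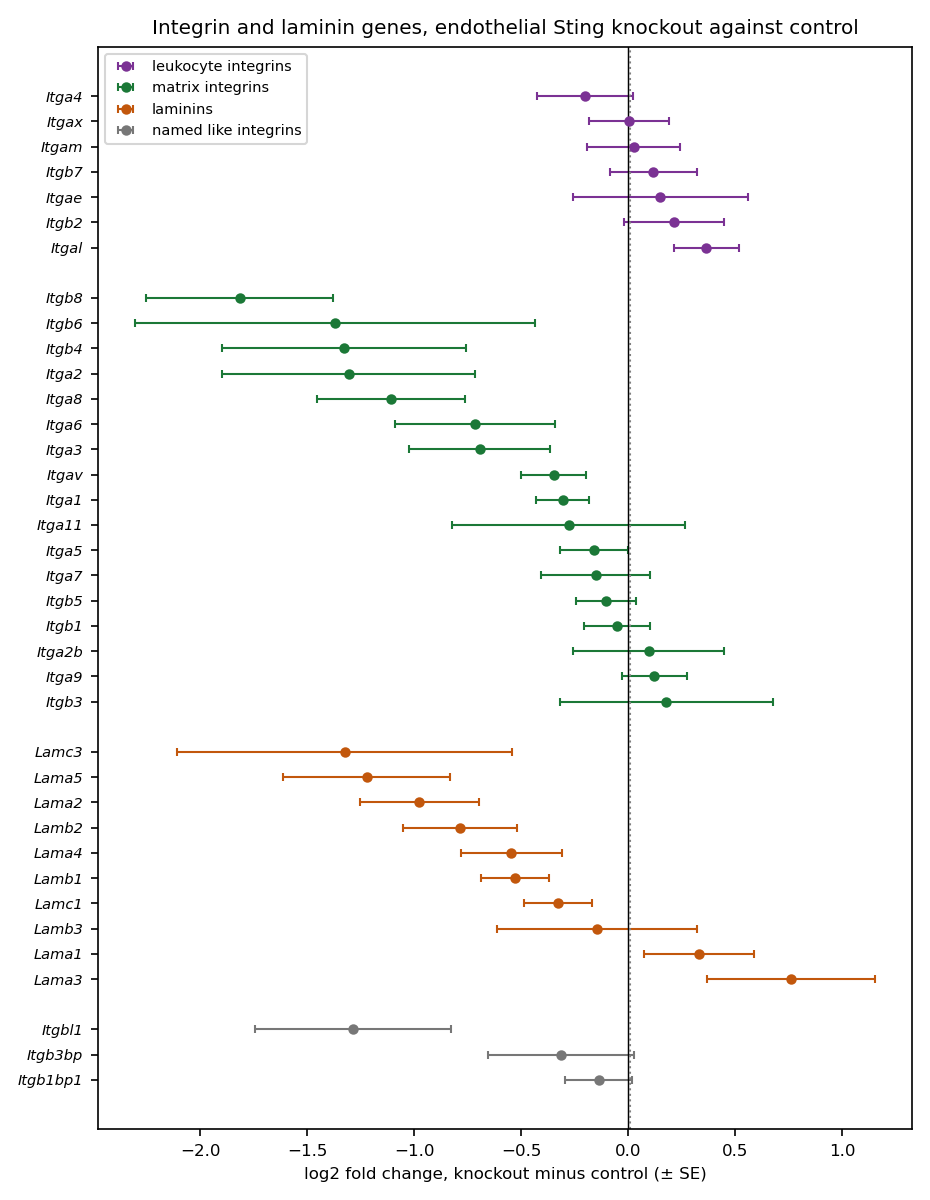
Log2 fold change, knockout minus control, of 37 members tested, with the standard error as bars; the colours mark the families and the dotted line is the median of all genes tested (0.01). Leukocyte integrins lie near 0, and the members farthest to the left are Itgb8 (-1.82) and Itgb6 (-1.37).

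The promoter bases of 3 members whose knockout libraries all lay below all control libraries in CPM are shown because theirs could be printed, of the 9 members of 38 with that pattern (9.14% of all genes). In TPM the groups of Lama2 overlapped, and 9 members were wholly below (18.6% of all genes). With total counts 11 were (19.5%). They are the 250 bases before the RefSeq start (GRCm38.p6), read 5′ to 3′ on the strand of the gene, of Itga1 (chr13:115101965-115102214, minus strand), Itgav (chr2:83724147-83724396, plus strand) and Lama2 (chr10:27616943-27617192, minus strand). None of these windows overlaps an exon of the GENCODE M21 annotation, but that of Lama2 lies within the gene as GENCODE M21 draws it, in an intron, since RefSeq places the start further downstream; those of Itgb8, Itgbl1, Lamb1 and Lamb2 do and are not printed.
Itga1: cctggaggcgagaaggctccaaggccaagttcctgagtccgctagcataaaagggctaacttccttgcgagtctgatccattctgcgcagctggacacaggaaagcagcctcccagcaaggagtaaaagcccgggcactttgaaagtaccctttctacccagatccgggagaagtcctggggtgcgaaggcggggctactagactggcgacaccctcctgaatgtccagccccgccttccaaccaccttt
Itgav: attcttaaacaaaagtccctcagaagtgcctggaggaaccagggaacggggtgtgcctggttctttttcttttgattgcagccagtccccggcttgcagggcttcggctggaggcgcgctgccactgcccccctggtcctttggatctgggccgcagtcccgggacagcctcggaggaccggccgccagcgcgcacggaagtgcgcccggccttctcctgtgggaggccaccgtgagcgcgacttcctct
Lama2: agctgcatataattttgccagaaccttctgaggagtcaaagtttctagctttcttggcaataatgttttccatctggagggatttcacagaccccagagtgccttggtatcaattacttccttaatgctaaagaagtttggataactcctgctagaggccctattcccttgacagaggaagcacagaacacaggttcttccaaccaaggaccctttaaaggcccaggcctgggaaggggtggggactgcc
Each window was searched on both strands for GGGCGG (the GC box), GGAATG (a TEAD motif), TGANTCA (AP-1), CACGTG (the E-box) and the interferon response core (GAAA, any 2 bases, GAAA), with matches to be set in capitals. The search found none of these letters in the 3 windows. Of all 32851 promoter windows of that length, 32.7% held the GC box, 12.6% the TEAD motif, 6.75% the AP-1 motif, 6.02% the E-box and 2.98% the interferon response core. Among 30 windows of 27 members the counts were 10, 3, 1, 0 and 2 in that order. The Itgav window was richer in G and C (64.4%) than that of Lama2 (47.2%), and the median of all windows was 52.4%.

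Per gene length, the β1 subunit had the highest level of all members. Itgb1, the common partner of most matrix-binding alpha subunits, was at 165.8 ± 33.4 TPM in control and 133.6 ± 12.4 TPM in knockout livers (SD, n = 3), and it made up 45.7% ± 2.87 and 44.1% ± 1.88 of the summed TPM of the 9 beta subunits. Itgb5, which pairs with αv, was at 97.0 ± 28.4 and 74.4 ± 3.67 TPM. Itgb2, the β2 subunit of leukocytes, was at 92.1 ± 34.8 and 88.4 ± 24.2 TPM. The libraries of the groups overlapped for all 3 in TPM. Among laminins, Lamc1 (12.5 ± 4.96 and 8.13 ± 0.388 TPM), the γ1 chain that most laminin trimers share, and Lamb1 (12.2 ± 3.80 and 6.93 ± 0.554 TPM), the β1 chain, stood highest. The mean over 6 libraries ran from 0.445 TPM (Lama3) to 10.3 TPM (Lamc1) in the laminins. Under TPM and total-count scaling the median log2 fold change of all genes was -0.20 and -0.21, against 0.01 under TMM scaling, so that TPM is used here for levels and TMM-scaled CPM (counts scaled to a common library size) for differences.

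**Figure D2:**
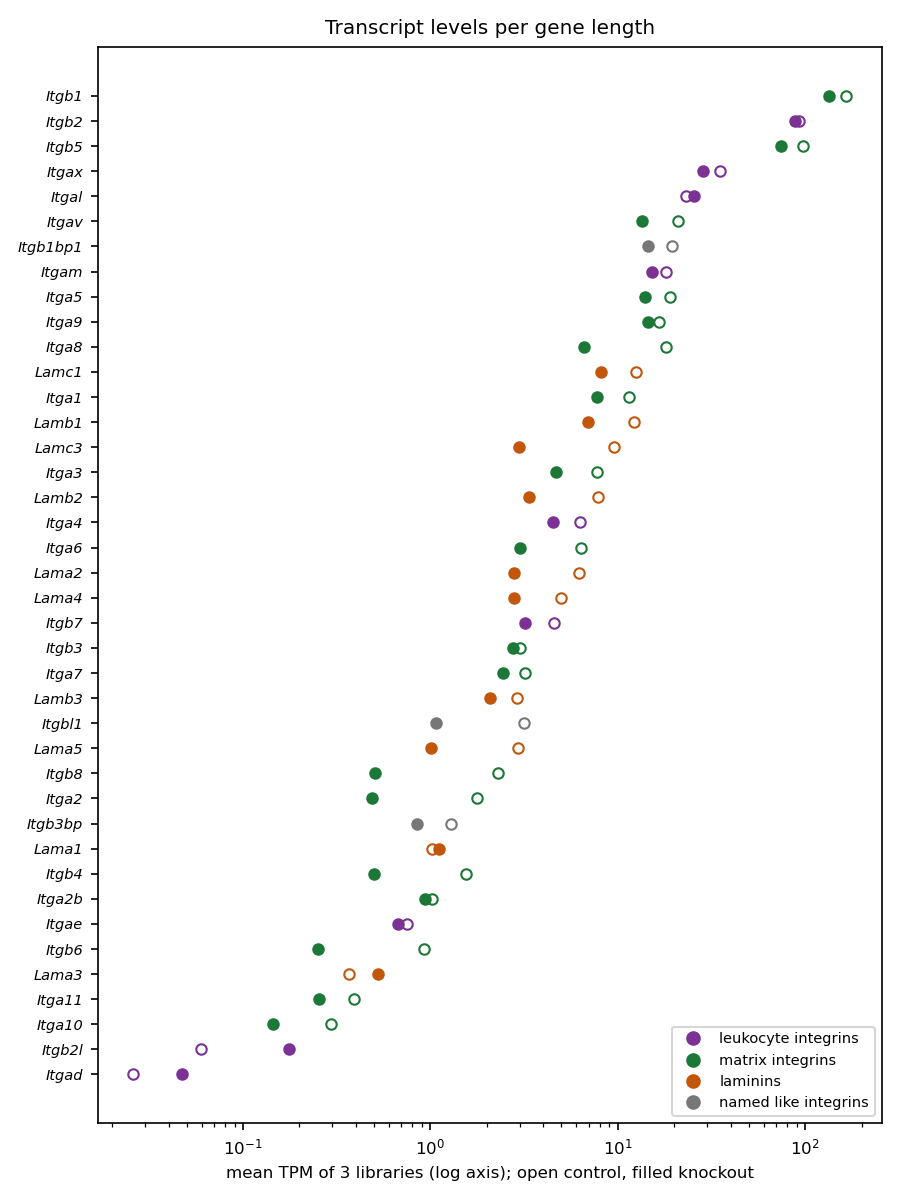
Mean TPM of 3 control libraries (open circles) and 3 knockout libraries (filled circles) on a log axis, for 40 members with any count, ordered by the mean over 6 libraries. Itgb1, Itgb2 and Itgb5 stand at the top, and Itgad and Itgb2l at the bottom.

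Filtering on low counts left out 4 members. Itgad, the αD subunit, had 0 to 4 counts per library, and Itgb2l, a β2-like subunit, had 0, 1 and 4 counts in control and 14, 2 and 0 in knockout libraries, by replicate number. The 14 counts of Itgb2l came from knockout replicate 1, which also had the highest summed CPM of 8 neutrophil markers (98.5 against 16.4 to 39.3 elsewhere, before TMM scaling); the part of neutrophils in this value was not tested. Itga10, an alpha subunit of collagen receptors, had 7 to 19 counts. Itgb1bp2, a muscle protein that binds the β1 subunit, had 0 counts in all 6 libraries, each of which allows up to 3 counts.

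Laminin chains were mostly at lower levels in the knockout. Of 11 chains, all of which were tested, 9 had a log2 fold change below 0, against 48.8% of all genes, and the median was -0.55 against 0.01 (-0.46 without control replicate 2). At an unadjusted p under 0.05 were 6 lower chains and none higher (7% and 3.75% of all genes); the number of lower chains was 3 when control replicate 2 was left out (4.13% of all genes), and 3 when knockout replicate 2 was (6.82%). In 5 chains every knockout library lay below every control library and in 1 every one lay above, against 9.14% and 7.25% of all genes. In TPM 3 chains were wholly below and 0 above (18.6% and 1.38% of all genes), and with total counts 5 below and 0 above (19.5% and 1.74%). By library, 8 of the 11 chains were highest in control replicate 2, where 25.3% of all genes had their highest value, and 8 were lowest in knockout replicate 2, where 13.9% of all genes had their lowest.

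Among the alpha chains, which carry the cell-binding end of the trimer, Lama2 (chr10, 26980036 to 27619758, minus strand, GRCm38), the chain of muscle and mesenchymal basement membranes, was at 22.4, 31.7 and 13.8 CPM in control replicates 1 to 3 and at 11.6, 10.2 and 12.7 CPM in knockout replicates 1 to 3. All knockout libraries were below the control libraries, although control replicate 3 lay close to them, and in TPM the groups overlapped. The log2 fold change was -0.98 (SE 0.28; adjusted p = 0.373 with edgeR), and -0.64 when control replicate 2 was left out. Lama5, the main alpha chain of mature epithelial basement membranes, was at 16.1, 23.0 and 8.54 CPM in control and 9.95, 5.28 and 5.17 CPM in knockout libraries. Here control replicate 3 lay below knockout replicate 1, so that the groups overlapped (log2 fold change -1.22, SE 0.39). Lama4, the chain of vascular basement membranes, was at 16.1, 16.3 and 11.9 CPM in control and 9.84, 7.29 and 13.2 CPM in knockout libraries, again with overlap (-0.55, SE 0.24).

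The other alpha chains had values above 0. Lama3, the chain of epithelial anchoring sites, had 25, 25 and 20 counts in control and 29, 49 and 27 in knockout libraries. All knockout libraries were above the control libraries in CPM, at 1.54, 2.81 and 1.48 against 1.26, 1.19 and 0.976, but not in TPM, and the counts were few (log2 fold change 0.76, SE 0.39; unadjusted p = 0.0856 with edgeR). Lama1, a chain of early embryonic basement membranes, ran from 3.48 to 6.25 CPM in control and from 5.27 to 7.09 CPM in knockout libraries, with overlap (0.33, SE 0.26).

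Of the beta chains, Lamb1 (chr12, 31265234 to 31329644, plus strand) was at 37.7, 38.0 and 27.5 CPM in control and 22.8, 22.5 and 26.1 CPM in knockout libraries. The knockout libraries were close together and below all controls, in TPM as well (log2 fold change -0.53, SE 0.16; adjusted p = 0.379 with edgeR). Lamb2, the β2 chain of vessels and synapses, was at 19.8, 22.2 and 12.8 CPM in control and 12.7, 7.23 and 11.8 CPM in knockout libraries. Control replicate 3 and knockout replicate 1 nearly met in CPM and overlapped in TPM, and the log2 fold change was -0.79 (SE 0.27). Lamb3, the epithelial β3 chain, did not separate the groups: it was at 6.82, 7.72 and 3.17 CPM in control and 9.15, 2.93 and 3.90 CPM in knockout libraries (-0.15, SE 0.47).

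Of the gamma chains, Lamc1 (chr1, 153218922 to 153332786, minus strand), shared by most trimers, was at 43.0, 56.8 and 38.5 CPM in control and 37.2, 34.5 and 38.3 CPM in knockout libraries, below all controls by a narrow margin (-0.33, SE 0.16; unadjusted p = 0.0711 with edgeR). It was at -0.14 when control replicate 2 was left out. Lamc3, the γ3 chain, varied over a wide range in both groups, at 21.7, 41.7 and 13.5 CPM in control and 20.1, 2.12 and 8.41 CPM in knockout libraries, and did not separate them (-1.33, SE 0.78, or -0.77 with control replicate 2 left out).

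Shares within the laminins do not rest on the scaling of libraries. Lama3 made up 0.564%, 0.495% and 0.740% of the summed laminin TPM in control and 0.924%, 2.93% and 1.33% in knockout libraries. The groups did not overlap for Lama3, and they overlapped for Lamb3, its partner in epithelial laminin. A share also depends on the other chains, and in TPM itself the groups of Lama3 overlapped. Lama3 counts were few, and the frequency of such separations in other gene sets was not computed.

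**Figure D3:**
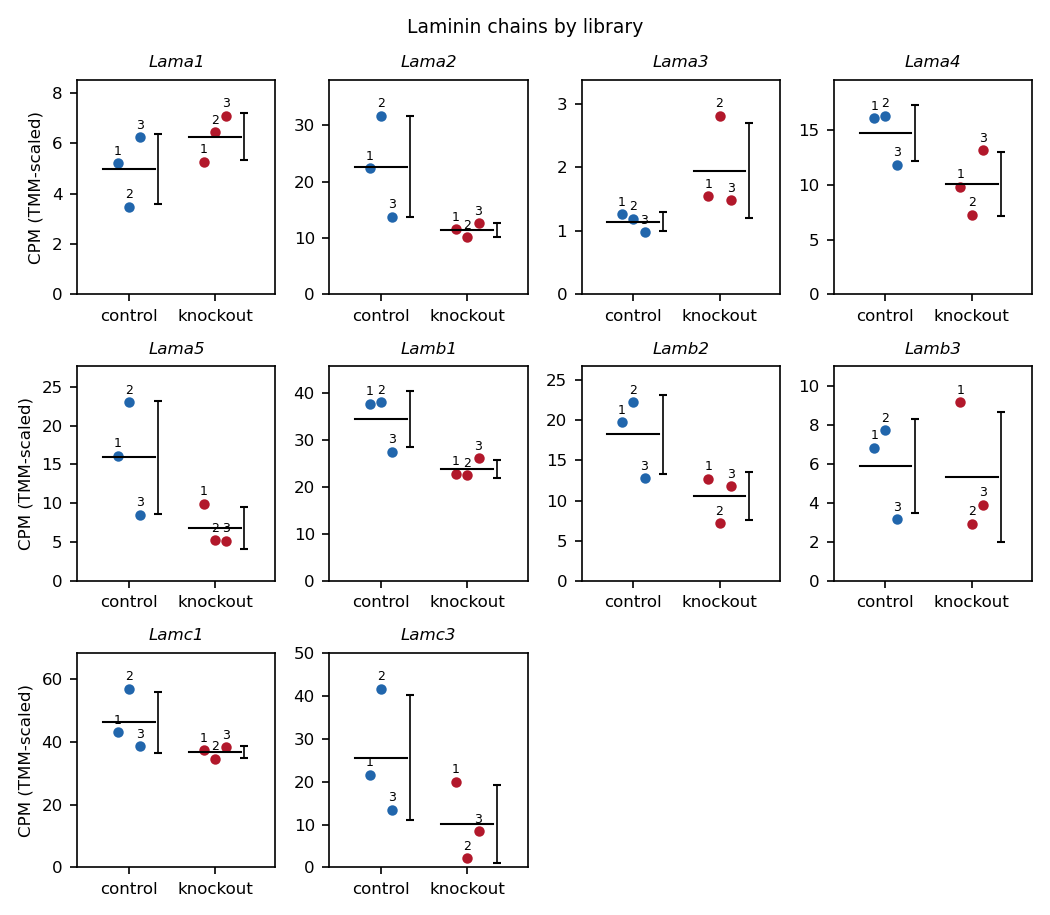
TMM-scaled CPM of 10 laminin chains, 1 panel each; points are libraries numbered by replicate, horizontal lines the group means and bars the SD (n = 3). Knockout points lie below all control points for Lama2, Lamb1, Lamb2 and Lamc1 and above them for Lama3.

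Matrix integrins mostly had a log2 fold change below 0. Of 18 genes 17 were tested, 14 of them below 0, against 48.8% of all genes. The median was -0.31, against 0.01 for all genes (-0.22 for matrix integrins without control replicate 2). At an unadjusted p under 0.05, 5 were lower and none higher (7% and 3.75% of all genes). Leaving out control replicate 2 gave 2 lower genes (4.13% of all genes), as did leaving out knockout replicate 3 (3.61%). The number was 3 when control replicate 1 was left out (4.29% of all genes) and 8 when control replicate 3 was (8.63%). All 3 knockout libraries lay below all controls in 3 genes (9.14% of all genes), which were Itgb8, Itgav and Itga1. In TPM and with total counts 3 of the 17 genes were also wholly below, against 18.6% and 19.5% of all genes.

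Of the subunits that can bind latent TGF-beta, Itgb8 (chr12, 119158022 to 119238802, minus strand), which pairs with αv alone, was at 8.24, 14.1 and 4.73 CPM in control and 3.72, 1.66 and 2.25 CPM in knockout libraries. In counts it had 163, 295 and 97 against 70, 29 and 41, and the knockout mean was 28.3% of the control mean. The log2 fold change was -1.82 (SE 0.44; adjusted p = 0.367 with edgeR and 0.0123 with DESeq2), and -1.33 without control replicate 2. Itgb6, the αv partner of epithelia, had 32, 60 and 15 counts in control and 28, 0 and 9 in knockout libraries, with overlap (-1.37, SE 0.94, or -0.80 with control replicate 2 left out). Itgav itself (chr2, 83724397 to 83806916, plus strand), whose promoter is printed above, was at 59.9, 72.4 and 55.4 CPM in control and 51.5, 53.6 and 42.3 CPM in knockout libraries. All knockout libraries were below the controls, by a small step (-0.35, SE 0.15; adjusted p = 0.461 with edgeR), which was -0.22 with control replicate 2 left out. Itgb5, at 143.2, 163.4 and 134.3 CPM in control and 140.7, 140.8 and 129.0 CPM in knockout libraries, and Itgb3 (0.18, SE 0.50) did not separate the groups.

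Among other subunits that recognise fibronectin and related ligands, Itga8, which marks stellate and smooth muscle cells, was at 47.1, 73.5 and 27.0 CPM in control and 29.3, 18.8 and 20.4 CPM in knockout libraries. Control replicate 3 lay below knockout replicate 1 (-1.11, SE 0.35; adjusted p = 0.381 with edgeR). Leaving out control replicate 2 gave -0.69. The fibronectin receptor subunit Itga5 (-0.16, SE 0.16), Itga9 (0.12, SE 0.15) and the platelet subunit Itga2b (0.10, SE 0.35) overlapped. Itgb1 was at 304.1, 320.0 and 316.0 CPM in control and 300.9, 329.0 and 278.0 CPM in knockout libraries, with a log2 fold change of -0.05 (SE 0.15).

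Among the collagen receptors, Itga1 (chr13, 114953096 to 115101964, minus strand), the main collagen-binding alpha subunit of mesenchymal and endothelial cells, was at 65.1, 64.1 and 58.9 CPM in control and 52.1, 54.9 and 45.2 CPM in knockout libraries. The groups were separate and each was tight (-0.31, SE 0.13; adjusted p = 0.442 with edgeR). Its neighbour Itga2, 20995 bases away on the same strand, had 43, 173 and 58 counts in control and 57, 20 and 21 in knockout libraries. It stood at -1.31 (SE 0.59) with all libraries and at -0.48 without control replicate 2. Itga11, the fibroblast collagen receptor, was too low to separate, at 9 to 29 counts (-0.28, SE 0.54).

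The laminin receptors were all below 0, with a median of -0.70 over 4 genes, which was -0.29 when control replicate 2 was left out. Itgb4, which pairs with α6 in hemidesmosomes and binds epithelial laminin, was at 5.26, 5.86 and 1.66 CPM in control and 2.82, 0.746 and 1.48 CPM in knockout libraries (-1.33, SE 0.57; adjusted p = 0.459 with edgeR). Its groups overlapped, since control replicate 3 lay below knockout replicate 1. Itga6 stood at -0.72 (SE 0.37), Itga3 at -0.69 (SE 0.33) and Itga7, the subunit of muscle, at -0.15 (SE 0.25). Without control replicate 2, Itga6 was at -0.15 and Itga3 at -0.26.

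**Figure D4:**
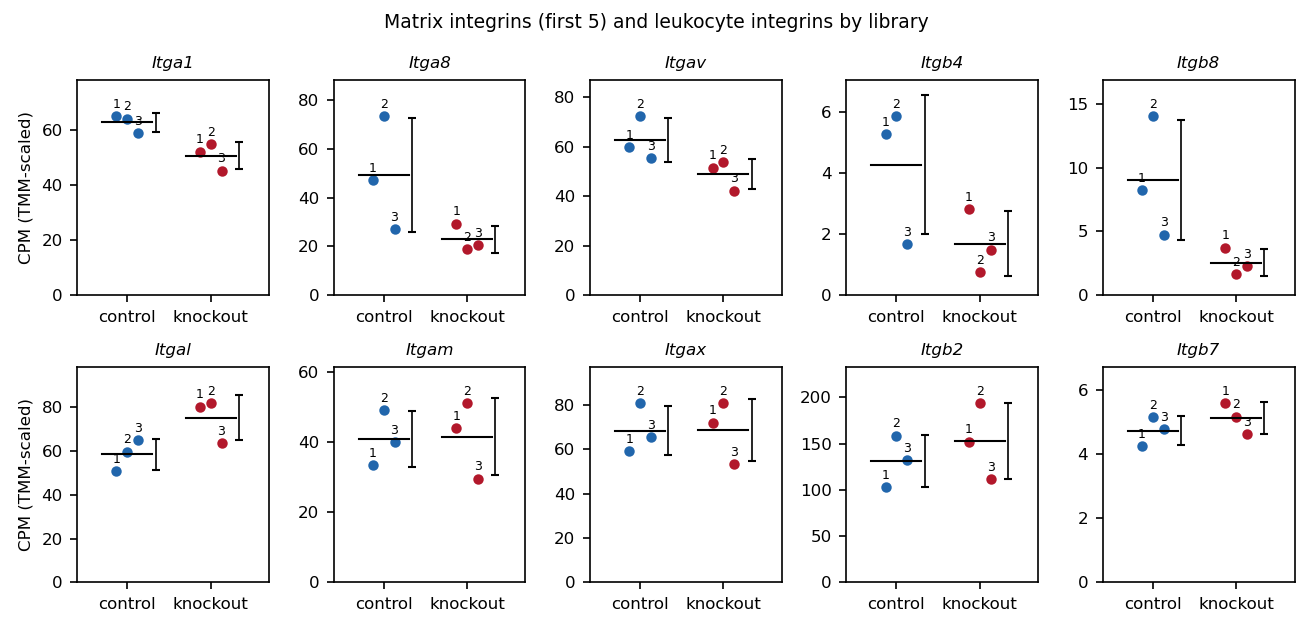
TMM-scaled CPM of 5 matrix integrins (upper row) and 5 leukocyte integrins (lower row); points are libraries numbered by replicate, lines the group means and bars the SD (n = 3). Itga1, Itgav and Itgb8 separate the groups, and the leukocyte integrins overlap.

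Leukocyte integrins had small differences under TMM scaling. Of 9 genes 7 were tested, 1 was below 0, and the median was 0.12; it turned to -0.11 with total counts alone and to -0.21 in log2(TPM + 1), against medians of all genes of -0.21 and -0.20. At an unadjusted p under 0.05, 1 gene was higher and none lower (3.75% and 7% of all genes). That gene was Itgal (chr7, 127296260 to 127335138, plus strand), the alpha subunit of the lymphocyte integrin LFA-1, at 50.6, 59.6 and 64.7 CPM in control and 80.2, 81.7 and 63.5 CPM in knockout libraries. Knockout replicate 3 lay below control replicate 3 (0.37, SE 0.15; adjusted p = 0.447 with edgeR). Its unadjusted p was under 0.05 in 2 of the 6 fits that each left out 1 library.

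Among the other alpha partners of β2, whose difference from Itgal was not tested, Itgam, the subunit of myeloid cells and complement receptor 3, was at 33.6, 49.2 and 40.1 CPM in control and 44.1, 51.2 and 29.7 CPM in knockout libraries (0.03, SE 0.22). Itgax, the CD11c subunit of dendritic cells and macrophages, was at 59.1, 80.7 and 65.2 CPM in control and 72.0, 80.6 and 53.1 CPM in knockout libraries (0.004, SE 0.19). Both lie in a cluster on chromosome 7 with Itgad, 11.1 kb and 3.72 kb apart, and Itgal lies 727501 bases before Itgam. Of the summed TPM of these 4 alpha subunits, Itgal took 32.3%, 27.0% and 33.9% in control and 37.0%, 34.7% and 39.5% in knockout libraries, and Itgax took 45.4%, 48.1% and 43.2% against 41.1%, 41.7% and 40.7%. The shares of the groups did not overlap for Itgal and Itgax and overlapped for Itgam. Shares have a fixed sum, so that a higher share of Itgal lowers the others, and the 2 separations are not independent. In CPM and in TPM the groups overlapped for Itgal and for Itgax. How often such shares separate in other gene sets was not computed.

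Itgb2 was at 103.1, 158.7 and 132.2 CPM in control and 152.1, 193.7 and 111.8 CPM in knockout libraries, with overlap (0.22, SE 0.23). Itga4, which binds VCAM-1 with β1 or β7, stood at -0.20 (SE 0.22), Itgb7, its gut-homing partner, at 0.12 (SE 0.20), and Itgae, which binds E-cadherin on epithelia, at 0.15 (SE 0.41) on 18 to 38 counts. In TPM Itgb7 was wholly below, at 5.189, 4.669 and 3.802 in control and 3.475, 3.268 and 2.887 in knockout libraries. It was the only leukocyte integrin tested that was separate in TPM (18.6% of all genes wholly below), and none was in CPM. Beside these values, 7 of 8 pan-leukocyte markers were above 0 under TMM scaling, with none at an unadjusted p under 0.05. Their median was 0.13, and it turned to -0.10 with total counts and to -0.15 in log2(TPM + 1). Their summed CPM before TMM scaling ran from 520.1 to 814.6 in control and from 468.0 to 691.7 in knockout libraries. Markers of T and natural killer cells had 3 of 10 genes higher at an unadjusted p under 0.05 (3.75% of all genes). In this list 3 genes were below 0. The sums ran from 12.9 to 20.3 in control and from 15.9 to 29.3 in knockout libraries. For 8 Kupffer cell markers, 4 were higher at that threshold (3.75% of all genes), and the sums ran from 552.8 to 926.1 and from 809.9 to 1032. Of 8 markers of monocytes and lipid-associated macrophages, 5 were above 0 and 3 below under TMM scaling. Their median was 0.03, with none at an unadjusted p under 0.05. No marker of these lists was at 0 in all libraries. The part of these cell types in the leukocyte integrin values was not tested.

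Of the genes named like integrins, Itgbl1, a secreted protein with integrin-like EGF repeats that is made by fibroblasts, was at 5.86, 8.00 and 4.34 CPM in control and 4.04, 0.975 and 2.42 CPM in knockout libraries. All knockout libraries were below the controls (-1.29, SE 0.46; adjusted p = 0.395 with edgeR). Itgb1bp1, which binds the β1 tail and restrains activation, and Itgb3bp, a centromere protein, overlapped in CPM, at -0.14 (SE 0.15) and -0.31 (SE 0.34).

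**Figure D5:**
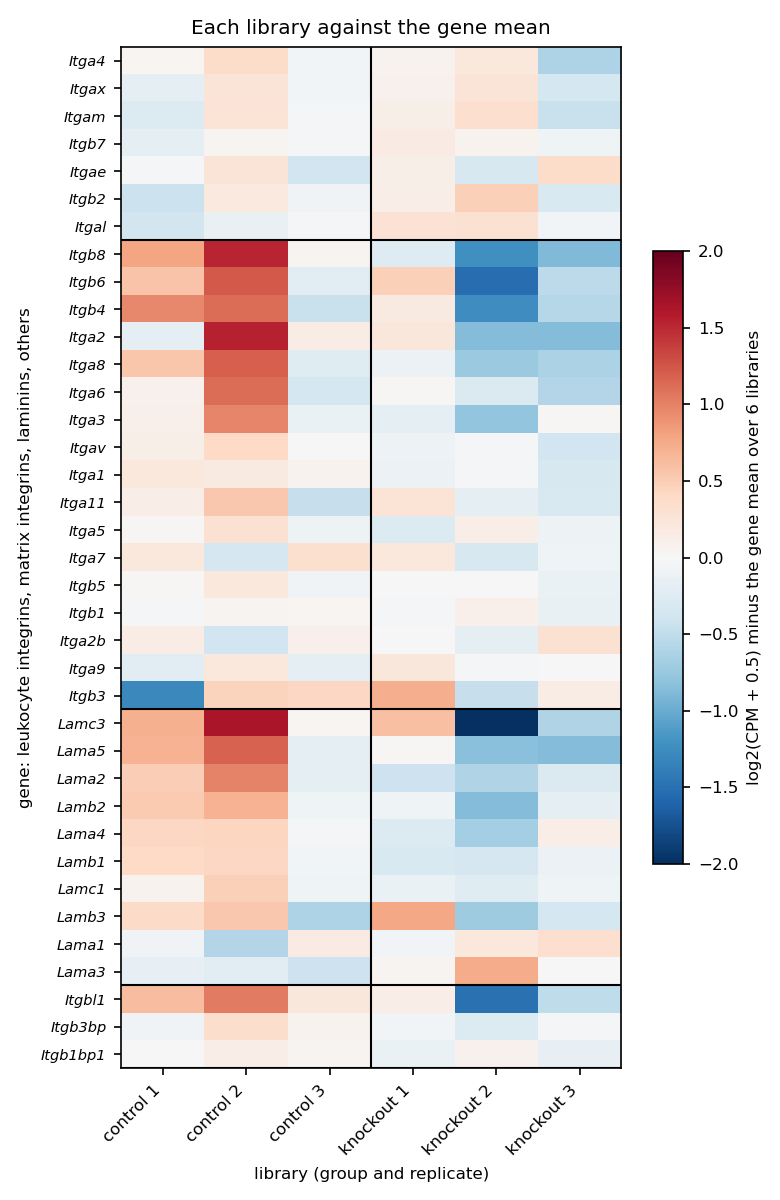
Log2(CPM + 0.5) of each library minus the mean of the gene over 6 libraries, for 37 members tested; columns are libraries and rows genes by family. Control replicate 2 holds the highest value of 23 of them and knockout replicate 2 the lowest of 15.

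Members shared a pattern across libraries beyond the group means. Control replicate 2 had the highest CPM in 24 of the 38 members (25.3% of all genes) and knockout replicate 2 the lowest in 16 (13.9% of all genes). Knockout replicate 3 was lowest in 10 (21.9% of all genes). Control replicate 3 was highest in 1 member (9.69% of all genes) and lowest in 3 (8.98% of all genes). Unadjusted p-values under 0.05 in every one of the 6 fits that left out 1 library were found for 5 members, among them Itga8, Itgb8, Lama2 and Lamb1, with the highest p among those fits at 0.048 for Itga8, 0.015 for Itgb8, 0.027 for Lama2 and 0.0422 for Lamb1 in edgeR's test. Of the other members under 0.05 with all libraries, Itgbl1 was under it in 4 of these fits, and Lama5 and Lamb2 in 3. Itga1, Itgav, Itgb4, Lama4 and Itgal were under it in 2. These fits share most of their libraries. The share of all genes under 0.05 in every one of these fits was not computed, so that the count of 5 has no baseline. Cholangiocyte markers, which mark bile duct cells, were below 0 in 9 of 9 genes tested. Among these markers, 5 were lower at an unadjusted p under 0.05 (7% of all genes) and 1 without control replicate 2 (4.13%). Their sums were 862.2, 1619 and 523.3 CPM in control and 543.6, 240.0 and 308.3 CPM in knockout libraries, before TMM scaling. Summed laminin CPM was 203.0, 324.7 and 139.0 in control and 134.2, 96.7 and 121.5 in knockout libraries. Control replicate 2 was thus highest and knockout replicate 2 lowest in both sums. Before TMM scaling, pan-leukocyte (814.6), stellate cell and fibroblast (2942) and endothelial (534.2) sums also peaked in control replicate 2. None of those was lowest in knockout replicate 2. Kupffer cell (1032) and T and natural killer cell (29.3) sums peaked in knockout replicate 1. After TMM scaling, laminin (258.3), cholangiocyte (1288) and stellate cell and fibroblast (2340) sums still peaked in control replicate 2. The scaled pan-leukocyte sum peaked in knockout replicate 2 (735.3, against 648.0 in control replicate 2). The scaled endothelial sum peaked in knockout replicate 1 (527.6, against 425.0 in control replicate 2). Stellate cell and fibroblast markers were below 0 in 9 of 10 genes. At an unadjusted p under 0.05, 2 were lower (7% of all genes) and 0 without control replicate 2 (4.13%). Their sums before TMM scaling ran from 1349 to 2942 in control and from 1136 to 1328 in knockout libraries. Endothelial markers were above 0 in 8 of 10 genes under TMM scaling, with a median of 0.18, which turned to -0.03 with total counts and to -0.07 in log2(TPM + 1). Their sums before TMM scaling ran from 419.2 to 534.2 and from 460.2 to 486.0. No marker of these lists was at 0 in all libraries, and the part of bile duct, stellate or endothelial cells in the laminin and matrix integrin values was not tested.

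Partners of laminin in the basement membrane were below 0 in 13 of 14 genes tested of 15, with a median of -0.48, which was -0.16 when control replicate 2 was left out. At an unadjusted p under 0.05, 5 were lower and none higher (7% and 3.75% of all genes), and 2 were lower when control replicate 2 was left out (4.13% of all genes). The smallest p-values were those of 3 of the 4 minor type IV collagen chains, and the other minor chain, Col4a3, was at -0.20 (SE 0.49) with overlap. Col4a4 was at 5.31, 4.91 and 2.29 CPM in control and 1.49, 0.631 and 1.54 CPM in knockout libraries (-1.76, SE 0.45; adjusted p = 0.367 with edgeR and 0.0309 with DESeq2). Col4a5 was at 14.5, 27.0 and 10.4 CPM in control and 9.15, 4.70 and 4.40 CPM in knockout libraries (-1.50, SE 0.41; adjusted p = 0.367 with edgeR and 0.0269 with DESeq2), and Col4a6 stood at -1.71 (SE 0.64). The exception above 0 was Col18a1, the collagen that yields endostatin (0.45, SE 0.23), named after its value was seen. All its knockout libraries lay above all controls in CPM (7.25% of all genes), in TPM (1.38%) and with total counts (1.74%). Of the 14 partners tested, 3 lay wholly below in CPM (9.14% of all genes), 4 in TPM (18.6%) and 4 with total counts (19.5%).

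Matrix ligands of integrins were below 0 in 7 of 10 genes, with 4 lower and none higher at an unadjusted p under 0.05 (7% and 3.75% of all genes) and none lower when control replicate 2 was left out (4.13% of all genes). The median was -0.67, and -0.22 in that fit. All knockout libraries lay below all controls in 1 ligand and above them in 2 (9.14% and 7.25% of all genes). Those above were fibronectin (Fn1; 0.35, SE 0.21) and vitronectin (Vtn; 0.38, SE 0.22), named after their values were seen, and neither was separate in TPM or with total counts. Osteopontin (Spp1) stood at -1.21 (SE 0.39), Ltbp1, which holds latent TGF-beta in the matrix, at -0.61 (SE 0.24) and Col3a1 at -0.90 (SE 0.37), or -0.34 when control replicate 2 was left out. Spp1 is also on the cholangiocyte list and Col3a1 on the stellate cell and fibroblast list. Of 9 counter-receptors of leukocyte integrins 8 were tested, and none had an unadjusted p under 0.05 in either direction. Cdh1, the E-cadherin ligand of Itgae, was at -0.39 (SE 0.24), C3, the source of the complement ligand of Itgam, at 0.37 (SE 0.23) and Jam3 at -0.27 (SE 0.31). Of 19 intracellular adhesion complex genes, 2 were lower and 2 higher at an unadjusted p under 0.05 (7% and 3.75% of all genes). The scaffold genes Lims2 (0.71, SE 0.21) and Lims1 (-0.48, SE 0.16), which bind integrin-linked kinase, had opposite signs, and Fermt1, the epithelial kindlin, had a mean of 4.91 CPM (SD 3.14) over control livers and 1.64 CPM (SD 0.715) over knockout livers (-1.58, SE 0.50, or -0.91 with control replicate 2 left out). Talin 1 (Tln1), which activates integrins, was at 0.13 (SE 0.15), named after its value was seen. None of these genes passed edgeR's test adjusted over all genes.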

How the data were processed

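Whole-liver polyA RNA was sequenced from 3 knockout and 3 control mice. Per gene, the authors deposited estimated counts and TPM values. The submitters' processing notes list RSEM 1.3.3, HISAT2 2.2.1, fastp 0.23.2 and DESeq2 1.38.3, with build GRCm38 and no roles. Libraries were strand-specific per the labels. The annotation release and any use of strand in counting were not given in the sources used here. The deposited counts were not normalized (6.93% of values not whole) and were rounded here for the fits. Knockout was compared with control in edgeR 4.0.16 (quasi-likelihood, TMM, filterByExpr, robust) over 13197 genes with Benjamini-Hochberg adjustment at 0.05. Each SE was the log2 fold change divided by the root of F. Alternatives were DESeq2 1.42.0, limma-voom and limma 3.58.1 on log2(TPM + 1) and log2(TPM + 0.1), other scalings and filters, a replicate block and each library left out. The fits were tested on simulated data. Scripts ran in Python 3.11.15 with matplotlib 3.10.9 and in R 4.3.3. For single genes, 3 against 3 libraries cannot give an exact permutation p under 0.1.

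The members, lists and rule for named genes were chosen with earlier results of these data known. Values by library are given for members at an unadjusted p under 0.05 or with separate groups and for the 2 most abundant of each family, and up to 3 genes of smallest p of each pathway list are named. Positions are from GENCODE M21 (all 42 members found) and promoters from RefSeq GRCm38.p6 (27 of 42 matched). 1 member is counted in the totals and medians but not reported here. Within a group, no pair of libraries was alike within counting noise.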

Additional observations from a re-analysis of the deposited data

How the results depend on the processing

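Medians of the families kept their sign in the fits with DESeq2, limma-voom, RLE scaling, both filters, the replicate block and each library left out. With total counts alone the leukocyte median was -0.11 and the matrix integrin median -0.54; in log2(TPM + 1) the leukocyte median was -0.21, and in log2(TPM + 0.1) it was -0.22, with matrix integrins at -0.55. Over the fits that left out 1 library the median ran from 0.01 to 0.19 (leukocyte integrins), from -0.51 to -0.22 (matrix integrins) and from -0.78 to -0.46 (laminins). Genes called over all genes numbered 119 in DESeq2, 5 with the replicate block and 0 to 2 with 1 library left out, where 2 were called on leaving out control replicate 2 and again on leaving out control replicate 3; the counts at an unadjusted p under 0.05 were 1419 in the main setting and 1533 in DESeq2. Sting1 passed in DESeq2 (-1.28). The labels do not say whether replicate numbers pair animals, and the main fit was made without pairing. Deviations of same-numbered libraries correlated at 0.115, -0.00678 and 0.133 over genes. Not every library correlated best with its own number, and such correlations cannot show whether animals were paired.

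No member passed the adjusted threshold in the main fit, and outside DESeq2 few or no genes passed it. The next counts thus chiefly show agreement of sign, among fits that share most of their libraries. Of 569 member values under the alternatives, 523 kept their sign and side of the threshold, 1 passed it (Itgb8 in DESeq2, -1.81) and 45, of 12 members with a small difference, changed sign. With total counts these were Itgb2 (-0.0229), Itgb7 (-0.11), Itgae (-0.0973), Itgb3 (-0.0705), Itgam (-0.21), Itgax (-0.23), Itga2b (-0.0933) and Itga9 (-0.12). In log2(TPM + 1) the same genes stood at -0.0318, -0.39, -0.0538, -0.0049, -0.21, -0.25, -0.0643 and -0.13 in that order, and in log2(TPM + 0.1) Itgb2, Itgb7, Itgae, Itgam, Itgax, Itga2b and Itga9 stood at -0.0319, -0.48, -0.0918, -0.22, -0.26, -0.12 and -0.14. Under those scalings the median of all genes is -0.21 and -0.20. Itgax also turned to -0.0035 in limma-voom, -0.0011 with the stricter filter and -0.0044 with the replicate block. With 1 library left out the values of the genes that turned ran from -0.21 to 0.45 for Itgb3, -0.15 to 0.22 for Itgam, -0.13 to 0.16 for Itgax, -0.78 to 0.15 for Lamb3, -0.0684 to 0.40 for Itgae, -0.11 to 0.0106 for Itgb1, -0.37 to 0.0178 for Itga4, -0.0854 to 0.23 for Itga2b and -0.62 to 0.16 for Itga11. The cause was not tested. Depth limits the genes with few counts, such as Itgb6, Itgae, Itga11 and Lama3.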
